A study of Mus musculus with 8 samples.

Results

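Long intergenic noncoding RNAs (lincRNAs) are long transcripts that lie between protein-coding genes and have no known protein product in the annotation. The 122 lincRNAs described here were chosen by their biotype and by their measured mean level: they are the rows of the deposited expression table annotated as lincRNA that reach a mean of at least 2 FPKM over the 8 libraries, outside the X and Y chromosomes. FPKM is a read count scaled by gene length and by the depth of the library. The choice used no difference between the groups, and the levels are given as a description. The table holds 54532 genes, of which 5559 are annotated as lincRNA. Of these, 3269 were at 0 in every library and 127 reached the mean of 2 FPKM. Of the 127, 1 lies on a sex chromosome and 4 belong to a set of well-known long noncoding RNAs, such as Malat1 and H19, that was left out by name. Hearts of mouse littermates taken at postnatal day 4 were compared. The cHET hearts (4 libraries) were Mrps5 fl/+;Myh6-Cre, with 1 floxed allele of Mrps5, a gene for a protein of the small mitochondrial ribosomal subunit, and Cre recombinase driven by the promoter of the cardiomyocyte gene Myh6, so that cardiomyocytes alone were designed to lose that allele. The control hearts (4 libraries) were Mrps5 fl/+ and carried the floxed allele with no Cre. Since no animals with Cre alone were measured, Cre and the lost allele cannot be told apart as the source of a difference. RNA was selected with poly-T beads, so transcripts without a poly(A) tail were not captured well.

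LincRNAs act in several ways that are known from single examples. Some are spliced carriers from whose introns small nucleolar RNAs (snoRNAs) or microRNAs are cut, some bind proteins or microRNAs in the cytoplasm, and for others the act of transcription at the locus, rather than the RNA, influences a neighbouring gene. Many start from the same promoter region as a coding gene that is read in the other direction, and in the heart a few lincRNAs are known to take part in the commitment of cells to the cardiac lineage.

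The sequences below show what several of the 122 lincRNAs carry. Mir17hg, the host RNA of the miR-17 to miR-92 cluster on chromosome 14, holds 6 microRNA hairpins, whose mature forms are known for promoting proliferation. Their mature sequences, from RefSeq on GRCm38.p6, are given 5′ to 3′ with the seed, bases 2 to 8, in capitals.
mmu-miR-17-5p: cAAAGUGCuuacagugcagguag
mmu-miR-20a-5p: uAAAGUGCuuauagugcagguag
mmu-miR-18a-5p: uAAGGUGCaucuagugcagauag
mmu-miR-19a-3p: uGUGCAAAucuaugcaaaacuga
mmu-miR-19b-3p: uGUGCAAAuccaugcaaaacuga
mmu-miR-92a-3p: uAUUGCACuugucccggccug
The first 2 share a seed, as do miR-19a and miR-19b, while miR-18a and miR-92a have seeds of their own. Another 6 of the lincRNAs hold 1 hairpin each, and the best known of them are let-7d in 6720427I07Rik, miR-30c in Gm27028 and miR-101a in E130102H24Rik.
mmu-let-7d-5p: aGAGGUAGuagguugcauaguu
mmu-miR-30c-5p: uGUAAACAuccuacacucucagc
mmu-miR-101a-3p: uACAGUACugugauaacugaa

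A pair of the most abundant lincRNAs are known for the sites they offer to a microRNA or a protein. 1700020I14Rik, which RefSeq names Oip5os1 and which is also called Cyrano, is known in mouse to trigger the decay of miR-7 through 1 long site. The microRNA is shown with its seed in capitals and the site of the longest GENCODE M21 transcript with the bases that pair with it in capitals, both 5′ to 3′.
mmu-miR-7a-5p: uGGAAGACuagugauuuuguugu
1700020I14Rik site: ACAACAAAAUCACcAauGUCUUCCA
At this site, positions 2935 to 2959 of 8300 bases, 22 of the 23 bases of miR-7a were paired, base 1 included. At the other match of the seed in the same transcript 11 were paired, with base 1 left out of the count. The 7-base seed match GUCUUCC itself is common: 26 of the 122 lincRNAs had it, as did 49.4% of the 401 genes with a longest transcript of similar length. 2900097C17Rik, which RefSeq names Norad, is known to bind Pumilio proteins in the cytoplasm at the motif TGTANATA. The longest transcript of 4915 bases held 11 such motifs, searched on the transcript strand alone, and the first 3 are shown with the motif in capitals.
Norad site at position 651: tagaagtcctgTGTATATAatatgaaaaag
Norad site at position 1147: agtaaacatgcTGTAAATAcctttttgtta
Norad site at position 1336: tggcttttcttTGTACATAgtgtatgtaaa
Of the 122 lincRNAs, 22 had at least 1 such motif, and no other had more than 2. Of 2374 genes whose longest transcript is within 500 bases of the length of Norad, 42.8% had at least 1 motif. At least as many as in Norad were found in 2 of them, Norad itself included.

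Some of these RNAs have a start region near that of a coding gene: 20 of the 122 start head to head within 1000 bases of an expressed one. The share over all genes was not measured. Snhg18, a host RNA of the snoRNA Snord123, starts 148 bases from Sema5a, a gene for a membrane protein of axon guidance that is read in the other direction. The RefSeq window of Snhg18 (chr15:32244613-32244912, minus strand, GRCm38.p6) is shown with the bases between both annotated starts in capitals.
Snhg18 promoter: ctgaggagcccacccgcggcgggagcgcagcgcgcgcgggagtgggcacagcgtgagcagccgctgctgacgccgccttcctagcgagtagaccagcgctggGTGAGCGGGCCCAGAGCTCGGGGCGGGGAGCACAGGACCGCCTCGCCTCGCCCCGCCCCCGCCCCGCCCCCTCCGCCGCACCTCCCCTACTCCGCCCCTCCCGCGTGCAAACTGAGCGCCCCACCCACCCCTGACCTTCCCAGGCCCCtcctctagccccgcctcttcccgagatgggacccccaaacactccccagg
Its 300 bases held 31 CG dinucleotides at a GC content of 75.3%, and 10.6% of all 32851 RefSeq windows held as many. The median was 9 CG dinucleotides in the windows of the 66 lincRNAs that RefSeq covers by symbol or synonym and 7 in all windows. The lincRNAs with the smallest p in each direction, Gm42047 and Gm19277, have no established function, and the first 150 bases of their longest GENCODE M21 transcripts (4988 and 1165 bases) are given so that the RNAs can be recognised.
Gm42047: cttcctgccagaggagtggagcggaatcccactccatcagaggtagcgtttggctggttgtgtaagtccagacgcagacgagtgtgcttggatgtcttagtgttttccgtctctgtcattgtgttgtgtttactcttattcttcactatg
Gm19277: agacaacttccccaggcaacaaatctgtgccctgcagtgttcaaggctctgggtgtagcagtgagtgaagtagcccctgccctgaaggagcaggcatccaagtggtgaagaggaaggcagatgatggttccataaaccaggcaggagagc

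The targeted gene Mrps5 stood at 6.84, 7.12, 7.0 and 7.68 FPKM in cHET 1 to 4, against 11.6, 6.27, 10.1 and 5.15 FPKM in control 1 to 4. The libraries labelled control 2 and control 4 lay below every cHET library, and the groups overlapped (log2 fold change -0.13; limma, adjusted p = 0.849; exact two-sided permutation test, p = 0.486, n = 4 each). Depth was 15490622 to 19234777 reads per library, rebuilt from the FPKM values. The heart markers Myh6, Tnnt2 and Actc1 were at 876 FPKM or more in every library. Some libraries stand apart: the brown fat gene Ucp1 had 0.286, 6.56, 0 and 1.62 FPKM in cHET 1 to 4 and at 17.8, 16.7, 0.0387 and 0.149 FPKM in control 1 to 4, and the atrial gene Myl7 stood at 69.0 FPKM in cHET 3 and at 643 FPKM or more elsewhere. In whole hearts, fewer cells of a type and less RNA per cell cannot be told apart.

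The 122 lincRNAs were short and variable beside all genes tested, which include them. Their median level was 4.17 FPKM, against 6.28 FPKM over the 13029 genes that entered the test (mean of at least 1 FPKM). The set was chosen by its level, at another limit (2 FPKM), so these 2 medians are a description alone. Their median gene length was 1449 bases, with a range of 252 to 16543, against 3894 bases over all genes tested. A lincRNA therefore had a median of 123 reads per library, where all genes tested had 472, and 67 of the 122 had fewer than 100 reads in at least 1 library. The lowest and highest read counts of a lincRNA in a library were 4 and 6036. Counting error alone gives a coefficient of variation of 9.0% at the median read number of the lincRNAs and 4.60% at that of all genes. The median SD of log2(FPKM + 1) over the 8 libraries was 0.304 for the lincRNAs and 0.177 for all genes, and 106 of the 122 lay above 0.177. Members of the set come from all 19 autosomes. Of the 122, 100 were under 10 FPKM, 47 reached 5 FPKM and 14 reached 20 FPKM. Just inside the limit of 2 FPKM stood Gm16907 (2.12 FPKM) and 4932422M17Rik (2.03 FPKM), and just outside stood 4632428C04Rik (1.98 FPKM) and Gm42595 (1.95 FPKM).

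Annotation of the set is uneven. The newer GENCODE M21 release keeps 117 of the 122 as lincRNA, and 17 have no spliced transcript there. RefSeq holds a record under the same symbol for 80, of which 71 are lncRNA and 7 protein-coding. Although they are called intergenic, 55 overlap another gene of the table and 30 overlap an expressed one, 23 of these on the other strand. Whether reads were counted by strand is not given in the sources used here, so values of the 30 are uncertain. Of the nearest expressed coding genes, 64 lie within 5000 bases or overlap the lincRNA, and 22 lie more than 50000 bases away.

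No lincRNA passed the test between cHET and control hearts. The test was limma on log2(FPKM + 1) with p-values adjusted over all 13029 genes, and 0 of the 122 had an adjusted p under 0.05, where 3 genes did in all (0.0230%). Limma voom on the rebuilt reads also called 0 of the 122. At an unadjusted p under 0.05, limma gave 7 lincRNAs above 0 (5.74%, against 5.03% of all genes) and 9 below 0 (7.38%, against 3.92%), together 13.1% of the set, against 8.95% of all genes, and voom gave 15 lincRNAs (12.3%, against 9.31% of all genes). All 4 cHET values lay above all 4 control values for 4 lincRNAs (3.28%, against 2.74% of all genes), and all lay below them for 5 (4.10%, against 2.00%). Of those 5, 1700096K18Rik and Gm26910 had cHET means under the 2 FPKM limit of the set and reached it through their control values. Both are also among the 9 below 0 at an unadjusted p under 0.05. A lincRNA near the limit can enter the set through 1 group alone, so none of these counts is support for a difference of the set. Without control 1, 5 lincRNAs were below 0 at an unadjusted p under 0.05 (4.10%, against 2.64% of all genes), while without control 3 there were 15 (12.3%, against 4.23%) and without control 4 there were 22 (18%, against 7.30%).

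The set as a whole leaned below 0. The median log2 fold change of cHET over control was -0.11, with quartiles of -0.23 and 0.10, against 0.0086 over all genes tested, and 44 of 122 (36.1%) were above 0, against 52.1% of all genes. Expressed as TPM, a scaling in which the median of all genes was 0.089, the median of the lincRNAs was -0.024, with 54 of 122 (44.3%) above 0, against 70.5% of all genes. Without control 1 the median was -0.022, with 57 of 122 (46.7%) above 0, against 52.1% of all genes. Without control 2 it was -0.075, with 44 (36.1%) above 0, against 52.0%, so the lean moved more with control 1 than with control 2. Without both it was 0.034, with 65 of 122 (53.3%) above 0, against 50.6% of all genes.

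**Figure D1:**
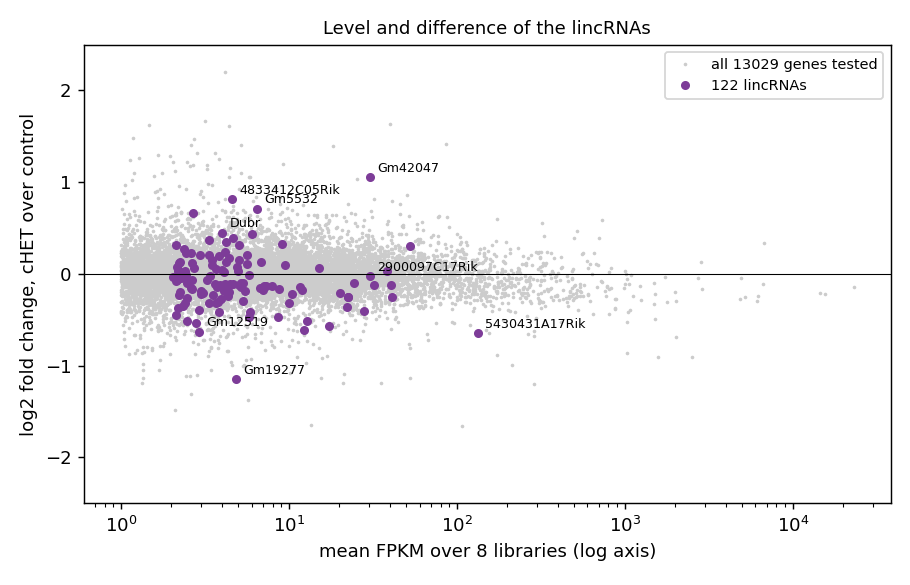
Mean FPKM over 8 libraries (log axis) and log2 fold change of cHET over control for the 122 lincRNAs (purple) and all 13029 genes tested (grey). Gm42047 at 1.05 and Gm19277 at -1.15 are the ends of the lincRNA range, and most lincRNAs lie under 10 FPKM.

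Among the lincRNAs above 0, Gm42047 had the smallest p. This RNA (ENSMUSG00000110631, chr8:121833247-121841178, plus strand, GRCm38) starts 3678 bases from Klhdc4, which is read the other way, and overlaps the unexpressed coding model Gm20388. It stood at 32.9, 36.4, 38.2 and 58.4 FPKM in cHET 1 to 4, against 15.8, 20.7, 15.9 and 24.9 FPKM in control 1 to 4. The groups did not overlap, and cHET 4 was the highest. The means were 41.5 ± 11.5 FPKM in cHET and 19.3 ± 4.36 FPKM in control (SD, n = 4), a ratio of 2.15, with 1384 to 5725 reads per library behind them. The log2 fold change of Gm42047 was 1.05, with an SE of 0.200 (limma, adjusted p = 0.275). Klhdc4 had a log2 fold change of 0.10, and Slc7a5, an amino acid transporter gene 39972 bases away, had 0.64 (limma, unadjusted p = 0.0228 and adjusted p = 0.486).

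The other lincRNAs whose cHET values all lay above the control values were Gm5532, Dubr and 4833412C05Rik. Gm5532 (ENSMUSG00000073535, chr1:155520173-155527143) stood at 8.30, 7.82, 7.42 and 9.19 FPKM in cHET 1 to 4, against 6.30, 3.62, 4.19 and 4.59 FPKM in control 1 to 4. The log2 fold change was 0.71, with an SE of 0.137 (limma, adjusted p = 0.275), and Gm5532 was the lincRNA with a call in an alternative fit, under library weights (adjusted p = 0.0462). Its nearest expressed coding gene, Acbd6, lies 30977 bases away and had -0.03. Dubr, known in mouse myoblasts for promoting muscle differentiation, stood at 4.31, 4.85, 4.60 and 5.35 FPKM in cHET 1 to 4, against 3.04, 3.84, 3.22 and 2.86 FPKM in control 1 to 4. The cHET values of Dubr began above the highest control value, that of control 2 (log2 fold change 0.45, SE 0.0968; limma, adjusted p = 0.334). 4833412C05Rik stood at 4.99, 6.58, 4.55 and 8.26 FPKM in cHET 1 to 4, against 4.20, 3.73, 2.36 and 1.93 FPKM in control 1 to 4. Its lowest cHET and highest control values were close, with a mean ratio of 2.00 (log2 fold change 0.82, SE 0.218; limma, adjusted p = 0.351). Ttc23, its neighbour at 21626 bases, had -0.22, and Bbx, the expressed coding gene nearest to Dubr at 286904 bases, had 0.11.

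Lockd and E330017L17Rik complete the 6 with the smallest p above 0, and their groups overlapped. Lockd lies 3579 bases downstream of Cdkn1b, the gene of a cyclin-dependent kinase inhibitor, and its start is known in mouse red cell precursors as an enhancer of that gene. It stood at 5.84, 4.77, 5.30 and 5.80 FPKM in cHET 1 to 4, against 3.64, 4.81, 3.96 and 3.24 FPKM in control 1 to 4. Control 2 reached just above cHET 2, and the log2 fold change was 0.39, with an SE of 0.111 (limma, adjusted p = 0.374), beside 0.14 for Cdkn1b (limma, adjusted p = 0.660). E330017L17Rik averaged 7.09 ± 1.67 FPKM in cHET and 4.95 ± 0.948 FPKM in control (SD, n = 4; log2 fold change 0.43; limma, adjusted p = 0.493), and its nearest expressed coding gene Ptp4a2 had 0.0033. All 25 mitosis genes of the list were above 0, with a median of 0.57, where 52.1% of all genes tested and 36.1% of the 122 lincRNAs were. The mitosis genes had summed levels of 347 to 511 FPKM in cHET and 208 to 314 FPKM in control libraries. Their part in the lincRNA values was not tested.

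Gm19277 had the smallest p below 0. It lies on chromosome 15 (ENSMUSG00000115924, chr15:85149254-85156132, minus strand), 49817 bases from Fbln1, a gene of a matrix protein. It stood at 3.11, 3.66, 1.98 and 1.58 FPKM in cHET 1 to 4, against 10.9, 3.99, 7.34 and 6.18 FPKM in control 1 to 4. Control 2 lay just above cHET 2, and the other control libraries lay well above every cHET library. The means were 2.58 ± 0.968 FPKM in cHET and 7.11 ± 2.91 FPKM in control (SD, n = 4), at 32 to 198 reads per library. The comparison of cHET with control gave a log2 fold change of -1.15, with an SE of 0.273 (limma, adjusted p = 0.337), -0.94 without control 1 and -1.15 without control 1 and control 2. Fbln1 had -0.23 (limma, adjusted p = 0.825) and Fam118a, 86424 bases away, had -0.18.

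In Gm12519, Gm4544, 1700096K18Rik and Gm26910, too, every cHET value lay below every control value. They are low, at means of 2.08 ± 0.576, 2.10 ± 0.407, 1.86 ± 0.454 and 1.65 ± 0.217 FPKM in cHET, against 3.74 ± 0.765, 3.51 ± 0.834, 3.08 ± 0.574 and 2.63 ± 0.548 FPKM in control (SD, n = 4). Their read counts ran from 16 to 100 per library. For Gm12519, the coefficient of variation over the 8 libraries was 37.4%, against 17.4% from counting error alone. Gm12519 stood at 2.70, 1.52, 2.43 and 1.66 FPKM in cHET 1 to 4, against 4.83, 3.66, 3.38 and 3.08 FPKM in control 1 to 4. Control 1 was the highest library for all 4 of these RNAs. Their log2 fold changes were -0.63, -0.53, -0.52 and -0.44 (limma, adjusted p = 0.337 to 0.370). The nearest expressed coding genes were Klf4 for Gm12519 (-0.07), Atp5g2 for Gm4544 (-0.14), Kmt2c for 1700096K18Rik (0.11) and Seh1l for Gm26910 (0.11), and Gm26910 starts 19 bases from Seh1l. Of 9 leukocyte markers, 0 were above 0, with summed levels of 69.8 to 106 FPKM in cHET and 86.6 to 232 FPKM in control. Of 10 epicardial and mesothelial markers, 8 were below 0, with 52.9 to 80.9 FPKM in cHET and 82.3 to 144 FPKM in control. Without control 1 and control 2 the leukocyte median moved from -0.56 to -0.16 and the epicardial and mesothelial median from -0.54 to -0.32. Below 0 were also 5 of 7 cardiomyocyte, 4 of 7 red cell, 4 of 5 atrial and 2 of 4 brown fat markers. Over all genes tested, 52.1% were above 0. The part of these cells in these lincRNA values was not tested.

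Gm34030 lies tail to tail with Hand2, a transcription factor gene of heart development, 7059 bases from it. It stood at 8.44, 6.86, 6.73 and 6.13 FPKM in cHET 1 to 4, against 12.0, 12.2, 9.67 and 7.10 FPKM in control 1 to 4. Control 4 lay within the cHET range, and the log2 fold change was -0.46, with an SE of 0.161 (limma, adjusted p = 0.469), or -0.22 without control 1 and control 2. Hand2 itself averaged 39.5 ± 2.63 FPKM in cHET and 34.1 ± 2.56 FPKM in control (SD, n = 4; log2 fold change 0.21; limma, unadjusted p = 0.0466, adjusted p = 0.552), and AV026068, a noncoding transcript on the strand of Gm34030, had -0.41 (limma, adjusted p = 0.486). Gm34030 overlaps 5033428I22Rik on the other strand. The remaining lincRNAs with an unadjusted p under 0.05 were CT030636.1 (0.66) above 0 and Eprn (-0.51), A330102I10Rik (-0.31) and Tmem250-ps (-0.26) below 0, and they are named here after their values were seen.

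**Figure D2:**
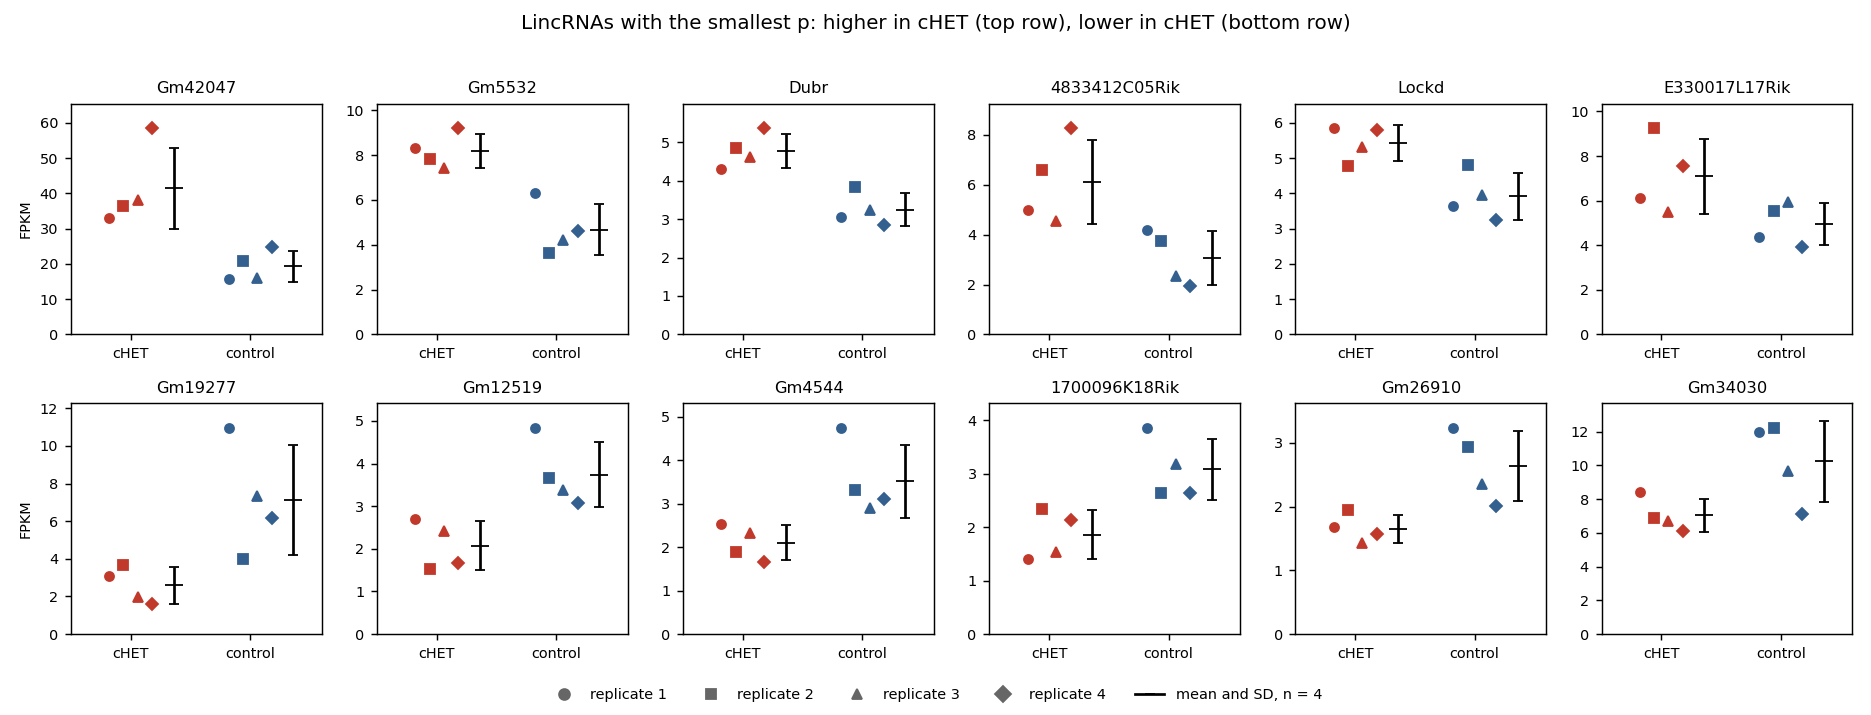
FPKM of the 6 lincRNAs with the smallest p above 0 (top) and below 0 (bottom), 4 cHET libraries (red) left of 4 control libraries (blue), with the mean and SD beside each group. The groups do not overlap for Gm42047, Gm5532, Dubr and 4833412C05Rik in the top row nor for the first 5 in the bottom row.

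The most abundant lincRNA differed mainly between control libraries. 5430431A17Rik (ENSMUSG00000108322, chr7:44484517-44485413, plus strand), which has no established function, held 12.8% of the summed FPKM of the 122, and the 8 most abundant held 38.2%. It stood at 132, 115, 84.4 and 71.5 FPKM in cHET 1 to 4, against 248, 211, 107 and 98.8 FPKM in control 1 to 4. Control 1 and control 2 were the highest, while control 3 and control 4 lay inside the cHET range. That gave a log2 fold change of -0.64, with an SE of 0.325 (limma, adjusted p = 0.595), and without control 1 and control 2 it was -0.07. Emc10, the nearest coding gene, had -0.04.

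The next most abundant lincRNAs were Gm10076, Gm44386, Lsmem2, 1700020I14Rik, 1810058I24Rik and Norad, and none had an unadjusted p under 0.05. Cyrano (1700020I14Rik), whose miR-7 site is shown above, averaged 38.7 ± 2.66 FPKM in cHET and 38.0 ± 4.54 FPKM in control (SD, n = 4; log2 fold change 0.03; limma, adjusted p = 0.929). Norad, the Pumilio-binding RNA, averaged 30.2 ± 2.30 FPKM in cHET and 30.9 ± 4.37 FPKM in control (log2 fold change -0.03, 0.07 in TPM; limma, adjusted p = 0.944). Both varied less between libraries than most of the set, with 4315 to 6036 and 1997 to 3143 reads per library. 1810058I24Rik, a protein-coding gene in RefSeq, averaged 30.6 ± 1.08 FPKM in cHET and 33.5 ± 3.43 FPKM in control (log2 fold change -0.12; limma, adjusted p = 0.690). Lsmem2, for which RefSeq records a membrane protein, averaged 38.2 ± 7.37 FPKM in cHET and 42.6 ± 13.0 FPKM in control (limma, adjusted p = 0.875). Gm10076, which RefSeq calls a pseudogene, ranged from 34.1 to 76.9 FPKM in cHET and from 25.8 to 93.6 FPKM in control libraries. Control 2 and control 3 lay below every cHET library, control 1 above every one, and control 4 among them. Near-identical copies elsewhere could share its reads, and its value is uncertain. Gm44386 averaged 36.3 ± 5.06 FPKM in cHET and 46.0 ± 20.3 FPKM in control, of which control 1 had 74.3, and its log2 fold change of -0.25 was 0.0085 without control 1. Of the 7 lincRNAs that RefSeq holds as protein-coding under the same symbol, all 7 were below 0, with a median of -0.15 that was -0.04 without control 1 and control 2. In the whole set 78 of 122 were below 0, with a median of -0.11 that was 0.034 without both.

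The set has 22 lincRNAs at a mean of 10 FPKM or more, and the others of them also had no call. Gm12319, which ends 97 bases upstream of Pfn1, the gene of the actin-binding profilin, stood at 21, 23.5, 31.9 and 18.2 FPKM in cHET 1 to 4, against 50.9, 22.5, 27.9 and 28.9 FPKM in control 1 to 4. Control 1 stood apart and the other control libraries lay within the cHET range (log2 fold change -0.41; limma, adjusted p = 0.643), while Pfn1 had 0.12. 2310040G24Rik was also highest in control 1, at 39 FPKM. Its cHET libraries had 15.4 to 23.4 FPKM, and control 2 to 4 had 17.7 to 23.9 FPKM (log2 fold change -0.25; limma, adjusted p = 0.735). Eprn, known in mouse embryonic stem cells for a part in leaving pluripotency, stood at 10.6, 10.8, 12.5 and 7.76 FPKM in cHET 1 to 4, against 19, 18.1, 12.9 and 11.5 FPKM in control 1 to 4. Its highest values were again those of control 1 and control 2 (log2 fold change -0.51; limma, adjusted p = 0.479). Gm26532 averaged 9.23 ± 2.26 FPKM in cHET and 15.4 ± 6.95 FPKM in control (SD, n = 4), with 23.4 FPKM in control 2 and 19 FPKM in control 1 (log2 fold change -0.61; limma, adjusted p = 0.585). AU020206 averaged 15.5 ± 2.14 FPKM in cHET and 14.7 ± 0.902 FPKM in control, and its groups covered nearly the same levels (limma, adjusted p = 0.823). Gm49477 (-0.17), 2010320M18Rik (-0.14) and 2900076A07Rik (-0.22) were each highest in control 1, and Tmem250-ps (-0.26) was highest in control 2. These RNAs are given here for their level, Eprn and Tmem250-ps having been named above for their p, and the 4 parenthesised values are log2 fold changes.

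By library, the lincRNAs were highest in control 1. Of the 122, 49 (40.2%) had their highest value there, against 15.0% of all genes tested, and 26 (21.3%) in control 2, against 22.5%. The median deviation from a gene's own mean, on the log2 scale, was 0.04, -0.0029, -0.05 and -0.14 in cHET 1 to 4 and 0.24, 0.09, -0.06 and -0.12 in control 1 to 4. The medians of all genes lay between -0.01 and 0.02. Summed over the 122, the level was 1027, 1039, 957 and 902 FPKM in cHET 1 to 4, against 1410, 1151, 952 and 924 FPKM in control 1 to 4. Summed FPKM over all genes was itself highest in control 1 and control 2, at 450265 and 467217, against 353291 to 392047 in the other libraries. As a share of it, the set took 0.262%, 0.272%, 0.253% and 0.240% in cHET 1 to 4, against 0.313%, 0.246%, 0.252% and 0.262% in control 1 to 4, so control 1 stayed the highest and control 2 did not stand out. As a share of reads the set took 0.204%, 0.204%, 0.194% and 0.195% in cHET 1 to 4, against 0.219%, 0.195%, 0.186% and 0.192% in control 1 to 4, and the group means were 0.199 ± 0.00532% in cHET and 0.198 ± 0.0145% in control (SD, n = 4). Control 1 and control 2 are the libraries in which Ucp1 stood at 17.8 and 16.7 FPKM and Adipoq, a gene of fat cells, at 4.43 and 5.16 FPKM, while Ucp1 and Adipoq were at 0 in cHET 3. The sum of all 8 brown fat markers ran from 175 to 197 FPKM in cHET and from 156 to 228 FPKM in control libraries, with its highest values in the same libraries. The part of brown fat in the lincRNA values was not tested.

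**Figure D3:**
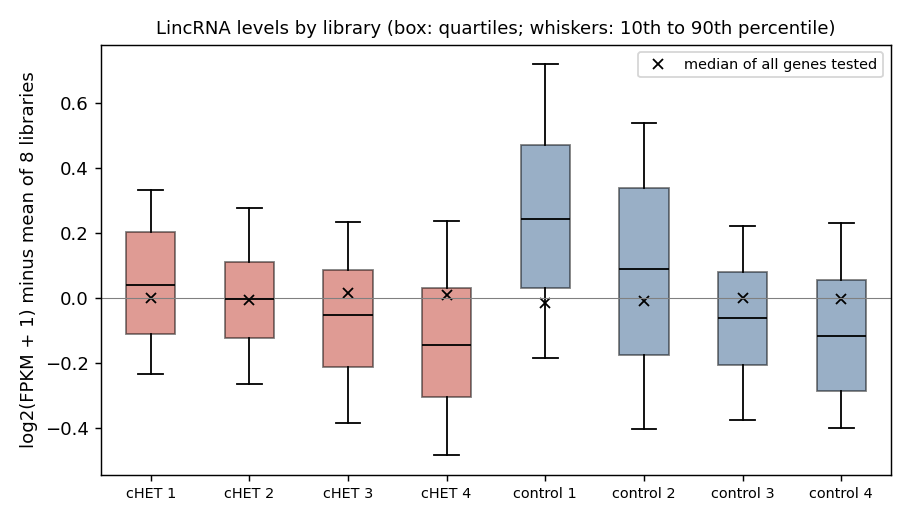
Deviation of log2(FPKM + 1) from each lincRNA's mean over 8 libraries, as boxes (quartiles) with whiskers to the 10th and 90th percentile, cHET libraries in red and control libraries in blue; crosses are medians of all genes tested. The box of control 1 stands highest, with a median of 0.24.

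Of the 6 lincRNAs named as hosts of snoRNAs, 5 were highest in control 1 or control 2. Host RNAs are spliced to release snoRNAs, which guide the modification of ribosomal RNA, and the spliced remainder is known to be degraded during translation. Of the 15 host RNAs tested, of any biotype, 0 passed the limma test and 13 were below 0. Below 0 were also 78 of the 122 lincRNAs and 6245 of the 13029 genes tested. The median log2 fold change of the host RNAs was -0.18, or -0.09 in TPM, while without control 1 and control 2 it was 0.13. Snhg18, whose shared start region is shown above, stood at 15.1, 17.7, 8.17 and 14 FPKM in cHET 1 to 4, against 22.2, 32.2, 16.9 and 13.3 FPKM in control 1 to 4. Control 2 was the highest and cHET 3 the lowest, and control 3 and control 4 lay within the cHET range (log2 fold change -0.56, SE 0.286; limma, adjusted p = 0.596; -0.17 without control 1 and control 2). Sema5a, across the shared start, had -0.12. Snhg6 stood at 24.2, 23.2, 21 and 25 FPKM in cHET 1 to 4, against 26.3, 36.5, 22.9 and 17.6 FPKM in control 1 to 4. Its cHET libraries lay close together inside the control range (log2 fold change -0.10; limma, adjusted p = 0.873), and the value was 0.0013 in TPM. Snhg20 stood at 11, 7.72, 7.75 and 7.93 FPKM in cHET 1 to 4, against 15.8, 14.4, 8.91 and 6.62 FPKM in control 1 to 4. Again control 1 and control 2 were the highest (-0.31; limma, adjusted p = 0.699; 0.13 without both). Epb41l4aos (-0.20), Snhg12 (-0.10) and Snhg10 (-0.06, but 0.0016 in TPM) had limma adjusted p-values of 0.725 to 0.928.

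**Figure D4:**
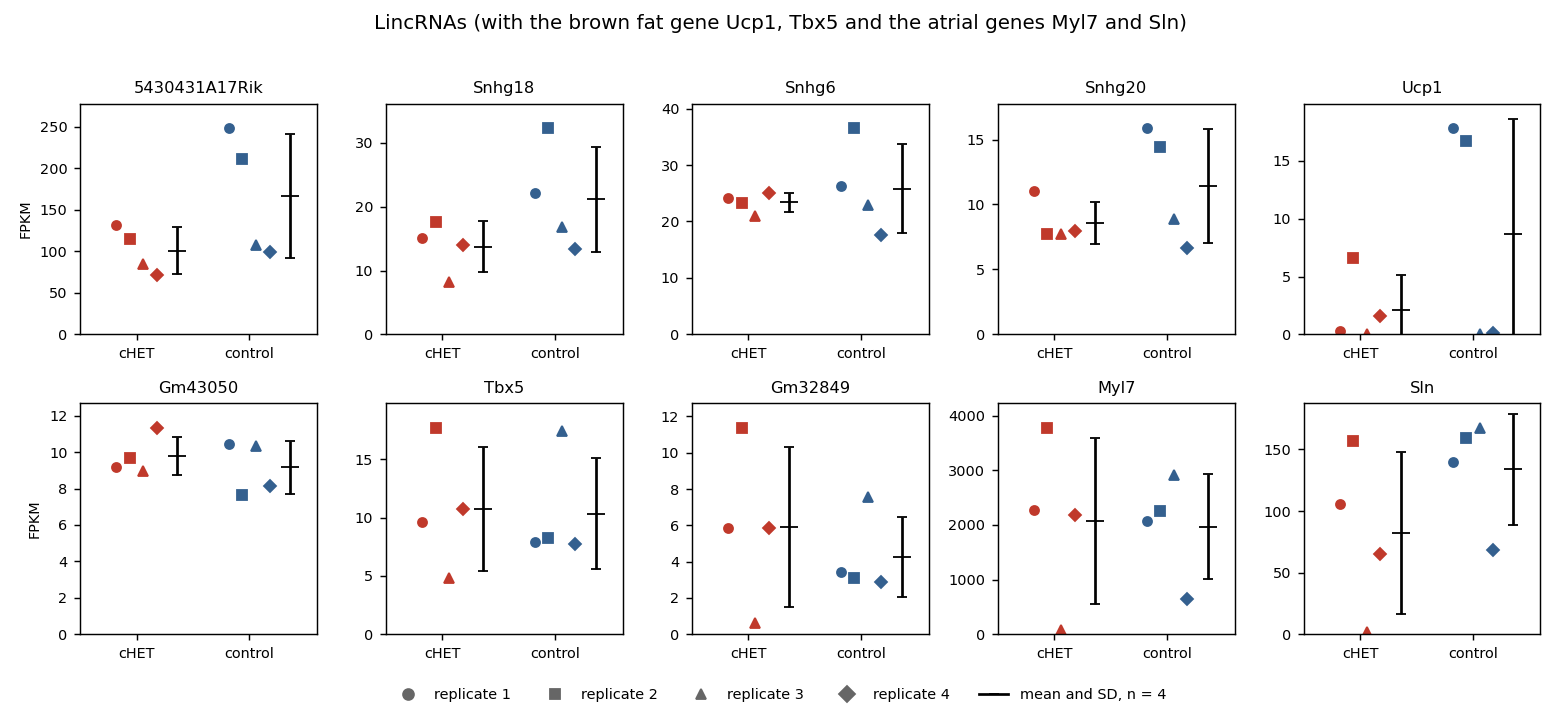
FPKM in 4 cHET libraries (red) and 4 control libraries (blue) with the mean and SD, for lincRNAs, the brown fat gene Ucp1, the heart gene Tbx5 and the atrial genes Myl7 and Sln. 5430431A17Rik, Snhg20 and Ucp1 are highest in control 1 and control 2, and Gm32849, Tbx5, Myl7 and Sln are lowest in cHET 3.

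RNAs that carry microRNA hairpins had no call. Mir17hg, the carrier of the cluster printed above, stood at 3.46, 2.54, 2.92 and 2.30 FPKM in cHET 1 to 4, against 3.00, 3.29, 2.10 and 2.21 FPKM in control 1 to 4. Its groups covered nearly the same range (log2 fold change 0.06; limma, adjusted p = 0.888). The let-7d carrier 6720427I07Rik had -0.15, the miR-101a carrier E130102H24Rik -0.16 and the miR-30c carrier Gm27028 0.31, and the 7 carriers had a median of -0.15. Poly-A RNA of a host does not measure its mature microRNA. Among RNAs with known roles, Bvht (Braveheart), which is needed in mouse embryonic stem cells for entry into the cardiovascular lineage, stood at 21.1, 22.4, 13.3 and 19.6 FPKM in cHET 1 to 4, against 30.7, 31.0, 21.8 and 17 FPKM in control 1 to 4. Control 3 and control 4 lay within the cHET range (log2 fold change -0.36, SE 0.216; limma, adjusted p = 0.643), and without control 1 and control 2 the value was -0.04. Gm26917, from a locus that bears ribosomal RNA sequence, averaged 5.91 ± 0.319 FPKM in cHET and 5.44 ± 0.730 FPKM in control (limma, adjusted p = 0.728).

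The differences of lincRNAs were set beside those of their neighbours. Of 122 pairs of a lincRNA and its nearest expressed coding gene, 54 had log2 fold changes of the same sign, and across pairs, which are not independent, Pearson's r was 0.09. In the 20 pairs that start head to head within 1000 bases of each other, 16 of the lincRNAs were below 0 and 16 of the coding genes above 0, with medians of -0.11 and 0.07, and 6 pairs shared a sign. The medians without control 1 and control 2 were -0.03 and 0.05. The whole set leaned the same way, with 78 of 122 lincRNAs below 0 (median -0.11). Of its 116 expressed neighbours, each counted once, 72 were above 0 (median 0.04). None of these 20 lincRNAs passed the limma test, and Gm26910 alone among them had groups that did not overlap. AI480526 (-0.41), beside the histone methyltransferase gene Setd1b (0.14), and A430046D13Rik (-0.47), beside Myl6b (0.14), had lincRNA values below and neighbours above 0, and both were named after their values were seen. The 22 lincRNAs with more than 50000 bases to the nearest expressed coding gene shared its sign in 14 pairs. The lincRNA had the lower FPKM in 73 of the 122 pairs, with a median ratio of 0.644 to its neighbour.

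**Figure D5:**
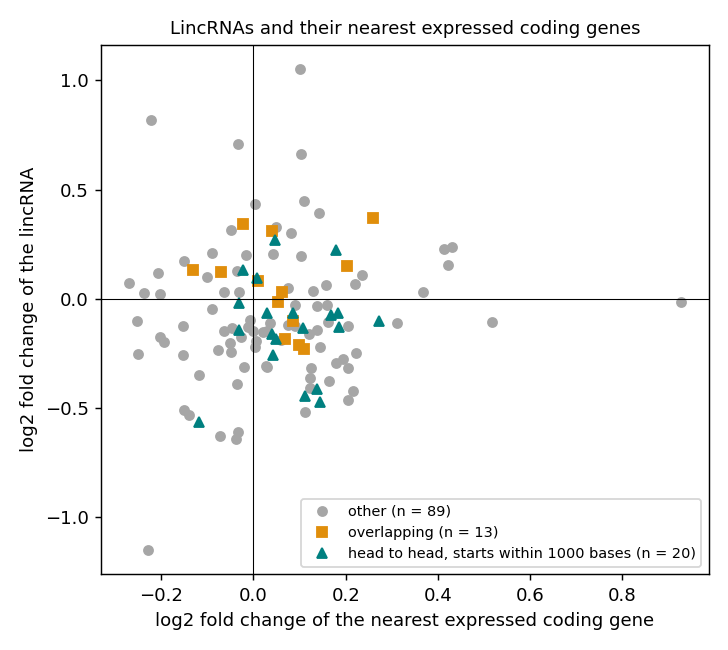
Log2 fold change (cHET over control) of each lincRNA against that of its nearest expressed coding gene, for 20 head to head pairs (triangles), 13 overlapping pairs (squares) and the other 89 pairs (circles). Points fill all 4 quadrants, and 54 of 122 pairs share a sign.

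At 1 locus on chromosome 5, 3 of the lincRNAs overlap. AI480526 starts head to head with the coding gene Setd1b, 527 bases away, and both Gm38102 and 4932422M17Rik lie within the span of AI480526 on the opposite strand. They were described for this overlap after their values were seen. AI480526 stood at 5.74, 4.40, 4.98 and 4.11 FPKM in cHET 1 to 4, against 10.4, 7.47, 4.80 and 5.22 FPKM in control 1 to 4. Control 1 and control 2 were above every cHET library and control 3 and control 4 were not (log2 fold change -0.41; limma, adjusted p = 0.59). Gm38102 had a log2 fold change of -0.14 and 4932422M17Rik one of -0.03, both with control 2 as the lowest library. Without strand in the counting, reads from such overlapping genes cannot be told apart, so the 3 levels are uncertain.

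A few lincRNAs stood out by their spread rather than by group. Gm32849, inside the gene Nav2 on the same strand, stood at 5.82, 11.4, 0.589 and 5.86 FPKM in cHET 1 to 4, against 3.44, 3.10, 7.58 and 2.89 FPKM in control 1 to 4. It was lowest in cHET 3 and highest in cHET 2 and control 3 (log2 fold change 0.15, SE 0.561; limma, adjusted p = 0.937). Tbx5, a transcription factor gene of the heart with high levels in atria, stood at 9.61, 17.7, 4.81 and 10.8 FPKM in cHET 1 to 4, against 7.89, 8.28, 17.4 and 7.74 FPKM in control 1 to 4. It shared that low and both highs. The summed level of the 5 atrial markers was 2604, 4303, 89.2 and 2445 FPKM in cHET 1 to 4, against 2455, 2729, 3395 and 815 FPKM in control 1 to 4, and the part of atrial tissue in Gm32849 was not tested. Nav2, which surrounds Gm32849, ran from 3.85 to 4.24 FPKM in cHET and from 2.53 to 3.96 FPKM in control, without the low of cHET 3. Gm43050, which starts 748 bases from Tbx5, did not share the pattern, at 9.19, 9.70, 8.98 and 11.3 FPKM in cHET 1 to 4, against 10.5, 7.67, 10.4 and 8.15 FPKM in control 1 to 4. It was named, like Tbx5, after its values were seen. CT030636.2, a short RNA antisense to the imprinted Airn, had 5 to 41 reads per library and ran from 2.28 to 6.79 FPKM in cHET and from 0.877 to 5.88 FPKM in control.

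Genes of RNA decay, which set the level of many noncoding RNAs, had no call either. Of 16 nonsense-mediated decay factors 0 passed the limma test, 11 were above 0, and the median log2 fold change was 0.07. Upf1, the central helicase gene of this pathway, averaged 23.3 ± 2.00 FPKM in cHET and 20.1 ± 2.18 FPKM in control (SD, n = 4; log2 fold change 0.20; limma, adjusted p = 0.589). Of 19 genes of the nuclear RNA exosome and its cofactors, 12 were above 0, with a median of 0.05, and Zcchc8 (0.18) and C1d (-0.21) had the smallest p. Over all genes tested, 52.1% were above 0.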

How the data were processed

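RNA-seq of 8 whole hearts was analysed from 1 deposited table, in which the authors give FPKM per gene and library with the gene length. The submitters' processing notes list the build mm9 and, with no roles, the tools DESeq2 1.20.0, featureCounts 1.5.0-p3 and HISAT2 2.0.5. The coordinates match GRCm38, however: start and end were those of GENCODE M21 for 98.3% of its genes found in the table. FPKM multiplied by length gave whole reads for 100% of values within 0.05 reads, so depth (15490622 to 19234777 reads per library) was rebuilt, and it bounds precision through counting error. The total by which the deposited FPKM were divided was 0.968 of these reads in control 1 and control 2. In the other libraries it was 0.994 to 1.04 of them.

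Genes with a mean of at least 1 FPKM (13029) entered a two-sided test of cHET against control. It used limma 3.58.1 under R 4.3.3 on log2(FPKM + 1), with a trended, robust eBayes step, Benjamini-Hochberg adjustment over all these genes and a threshold of 0.05. On this scale the change of low genes is understated. The labels call the 4 libraries of each group biological replicates. Alternatives were another pseudocount, filter, scaling or variance model, library weights, voom, a replicate block, sex as a covariate (from Xist and Y-linked genes), and libraries left out. The lincRNAs, gene lists and rules were chosen with earlier results of these data known. Named are members on lists of known noncoding RNAs, the 8 with the highest mean, the 6 with the smallest p per direction with their neighbours, the 4 with the largest SD and those beside the 2 FPKM limit (32 in all), and, of other lists, the 2 genes with the smallest p or highest mean. Other genes were named for their place or after their values were seen. Sequences come from RefSeq (GRCm38.p6) and GENCODE M21.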

Additional observations from a re-analysis of the deposited data

Results flagged for a closer look

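Within a group of 4 libraries, 1 library stood far from the other 3 in 3 of the 68 groups examined (32 named lincRNAs, Mrps5 and the summed level of the 122, each in both groups), and chance gives such a gap in about 1 of 20 groups. 1810058I24Rik was lowest in cHET 2, at 28.96 FPKM, with the other cHET libraries at 31.01 to 31.24 FPKM. Snhg20 was highest in cHET 1, at 11.03 FPKM, with the other cHET libraries at 7.72 to 7.93 FPKM. Gm32849 was highest in control 3, at 7.58 FPKM, with the other control libraries at 2.89 to 3.44 FPKM.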

How the results depend on the processing

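Among the 122 lincRNAs, 0 passed the limma test in every alternative but library weights, where 1 did (Gm5532, log2 fold change 0.77, adjusted p = 0.0462; its adjusted p ran to 0.778 over the alternatives), beside 11 of all genes, against 3 without weights and 2 to 3 with 1 library left out. Lists of snoRNA hosts, decay factors and exosome genes had 0 calls in the alternatives run. With 1 library left out, 4 to 7 lincRNAs had cHET values all above control (7 without control 1, control 2 or control 4, or 5.74%, against 3.44%, 5.08% and 6.09% of all genes) and 5 to 13 all below (13 without control 4, or 10.7%, against 5.38%). Without control 1 and control 2 these counts were 15 and 9, where fewer libraries must separate (10.1% and 8.20% of all genes), and the median of the set was 0.034. The sign of 19 of the 32 named lincRNAs held in all 20 alternatives.

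The cause of the following changes of sign was not tested. Without control 1 and control 2, values were 0.20 for Gm44386, -0.062 for 1700020I14Rik, 0.21 for Snhg6, 0.13 for Epb41l4aos, 0.13 for Snhg20, 0.14 for Snhg12, -0.069 for Gm32849 and -0.28 for CT030636.2. With library weights they were -0.011 for 1700020I14Rik, 0.040 for Snhg6, 0.00096 for Epb41l4aos, 0.062 for Snhg12, -0.12 for Gm32849 and -0.13 for CT030636.2. In TPM they were 0.068 for 2900097C17Rik (Norad), 0.0013 for Snhg6, 0.0016 for Snhg10 and 0.020 for 4932422M17Rik. With sex as a covariate they were 0.022 for Lsmem2, 0.049 for Snhg10 and 0.073 for 4932422M17Rik, which had 0.0056 in voom. With 1 library left out, values ran from -0.30 to 0.041 for Mrps5, whose sign changed without control 1, from -0.44 to 0.0085 for Gm44386, from -0.34 to 0.028 for Lsmem2, from -0.044 to 0.094 for 1700020I14Rik, from -0.12 to 0.031 for 2900097C17Rik, from -0.26 to 0.081 for Snhg6, from -0.24 to 0.75 for Gm32849, from -0.19 to 0.44 for CT030636.2, from -0.015 to 0.15 for Mir17hg, from -0.20 to 0.11 for Snhg10 and from -0.24 to 0.11 for 4932422M17Rik.

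Whether replicate numbers pair the libraries could not be settled. Deviations of same-numbered libraries correlated at 0.286, 0.266, 0.0521 and 0.0572, all above 0. Those of libraries with unlike numbers ran from -0.272 to 0.344, the highest being cHET 3 with control 4. With the replicate number as a block, 0 lincRNAs and 1 of all genes passed, and 26 lincRNAs (21.3%, against 13.4% of all genes) had an unadjusted p under 0.05. Depth limits the scarce lincRNAs most, since 67 of the 122 had fewer than 100 reads in some library.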
